A study of Mus musculus with 9 samples.

Results

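The muscle acetylcholine receptor and the proteins that cluster it were followed through 7 genes, namely Chrna1, Chrnb1, Chrnd, Chrng, Chrne, Musk and Rapsn, in the developing mouse urogenital sinus. Members were all probe sets of the array annotated to one of these symbols alone, which gave 9 probe sets for the 7 genes, of 34958 probe sets with a single symbol for 18194 genes in all. Each of 9 Affymetrix arrays carried total RNA of the urogenital sinus, the embryonic source of the prostate and bladder neck, from C57BL/6 mice. Over embryonic days 13 to 16 the dams had received 20 µg/kg/day of BPA (bisphenol A, a weakly estrogenic building block of plastics), 0.2 µg/kg/day of DES (the synthetic estrogen diethylstilbestrol), or only the tocopherol-stripped corn oil that carried both agents (vehicle). Sinuses were collected on embryonic days 17 and 18 (E17, E18) and at birth (P0), with 1 array for each of the 9 combinations of agent and age. Per the labels, sinuses of both sexes were freed of bladder, urethra and duct tissue. How many animals or litters stand behind an array, and of which sex, is not given in the labels, so a difference in sex between single arrays cannot be told apart from agent or age, and every p-value reflects only how these arrays vary among themselves, and that variation may be technical.

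The muscle receptor is a ring of subunits that opens a cation channel when the motor nerve releases acetylcholine. Fetal muscle builds it from alpha, beta, delta and gamma subunits (Chrna1, Chrnb1, Chrnd, Chrng), and after birth the epsilon subunit (Chrne) takes the place of gamma at the synapse. Agrin from the nerve acts through Lrp4 on the kinase MuSK (Musk), and rapsyn (Rapsn) then anchors the receptors beneath the nerve terminal. Skeletal muscle near the sinus includes the striated sphincter of the urethra and the muscles of the pelvic floor.

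Regulators of the MyoD family bind E-boxes, with the letters CANNTG, and the form CAGCTG is one that they favour, while ETS family factors bind the N-box, CCGGAA, at synaptic genes. RefSeq (build GRCm38.p6) held a promoter for 5 of the 7 genes, and Chrnd and Rapsn were the genes with none in the table used here. The 160 bases before each annotated start are shown because they let the subunit genes be compared at the motifs through which muscle regulators act. They run 5′ to 3′ in the direction of the gene, and the capitals mark CAGCTG and CCGGAA.
Chrna1 (chr2:73580339-73580498, minus strand): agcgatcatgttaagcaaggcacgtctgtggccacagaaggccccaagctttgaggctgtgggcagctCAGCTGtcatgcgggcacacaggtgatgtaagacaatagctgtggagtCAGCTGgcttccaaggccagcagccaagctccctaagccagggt
Chrnb1 (chr11:69795938-69796097, minus strand): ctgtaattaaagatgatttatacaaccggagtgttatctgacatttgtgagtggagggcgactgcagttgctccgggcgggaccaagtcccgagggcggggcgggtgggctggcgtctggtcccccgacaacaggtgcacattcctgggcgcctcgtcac
Chrng (chr1:87205651-87205810, plus strand): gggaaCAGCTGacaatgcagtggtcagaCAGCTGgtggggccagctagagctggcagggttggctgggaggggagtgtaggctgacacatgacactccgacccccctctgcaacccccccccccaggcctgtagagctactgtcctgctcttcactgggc
Chrne (chr11:70619195-70619354, minus strand): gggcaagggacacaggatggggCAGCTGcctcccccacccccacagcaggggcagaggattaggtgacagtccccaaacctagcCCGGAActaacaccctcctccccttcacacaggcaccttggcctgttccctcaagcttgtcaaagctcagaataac
Musk (chr4:58285802-58285961, plus strand): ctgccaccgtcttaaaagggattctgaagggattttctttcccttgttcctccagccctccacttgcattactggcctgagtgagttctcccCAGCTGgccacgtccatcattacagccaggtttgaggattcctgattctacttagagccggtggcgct
Positions are counted backwards from -1, the base before the annotated start, and give the first base of a motif. The alpha gene Chrna1 held CAGCTG 2 times, at -92 and -44. The gamma gene Chrng also held it 2 times, at -155 and -132. Chrne held 1 CAGCTG at -138 and 1 CCGGAA at -76, and Musk held 1 CAGCTG at -68. Chrnb1 had 0 CAGCTG and 3 E-boxes of other letters. Both strands were searched over 250 bases, and CAGCTG also counts as a CANNTG. Of 32851 RefSeq promoters of the same length, 66.2% held CANNTG, 13% held CAGCTG, 12% held CCGGAA and 1.26% held 2 or more CAGCTG. A match is a description of the letters. Chrnd and Chrng are neighbouring protein-coding genes in RefSeq.

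The values are probe set signals after the 9 arrays were brought to 1 common distribution (quantile normalization). Differences are in log2 units, taken after 5.46 was added to each signal, which understates the differences of dim genes. A gene was tested when its mean level reached the 40th percentile of all probe sets (a signal of about 41.2), and 13400 genes did. Chrna1, Chrnb1, Chrng and Rapsn passed this filter, and Chrnd, Chrne and Musk did not, so the last 3 are given as values with no test. Before scaling, the dimmest array (BPA P0) had a trimmed mean signal of 157 and the brightest (DES E17) one of 277. Summed signals of 5 epidermal genes were 937 to 1014 with vehicle, and with BPA they were 1594, 7241 and 18227 in order of age. Those of 6 gonad genes were 3403 on the BPA P0 array and 502 to 593 on the other arrays. The summed signal of 8 genes of the sinus epithelium lay between 10624 and 14770 on every array, BPA P0 included. Such a sum cannot show whether other tissue was also present.

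Among the subunits of the fetal receptor, Chrna1, the alpha subunit that carries most of the acetylcholine binding site, had signals of 159, 176 and 247 on the vehicle arrays at E17, E18 and P0. With DES they were 190, 158 and 184, and with BPA 73.7, 170 and 185 at the same ages. The BPA E17 array was the lowest by a wide margin, the vehicle P0 array was the highest, and the ages overlapped because DES E17 lay above DES P0.

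Chrnb1, the beta subunit present in the fetal and the adult receptor alike, had signals of 118, 123 and 198 on the vehicle arrays, 136, 174 and 168 on the DES arrays and 91.9, 164 and 128 on the BPA arrays. Its lowest value again came from the BPA E17 array, and both the agents and the ages overlapped.

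Chrng, the gamma subunit specific to the fetal receptor, was read by 3 probe sets. The brightest, 1449532_at, gave 95.4, 118 and 106 on the vehicle arrays, 66.6, 135 and 75.6 on the DES arrays and 14.1, 93.6 and 88.8 on the BPA arrays. All 3 BPA values lay below all 3 vehicle values, with 93.6 on the BPA E18 array just under 95.4 on the vehicle E17 array. The BPA E17 array stood far below the other arrays.

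A dimmer probe set of Chrng, 1452520_a_at, read 24.4, 31.3 and 37.0 with vehicle, 14.7, 12.3 and 26.7 with DES, and 0.919, 24.7 and 14.8 with BPA. It too was lowest on the BPA E17 array, and its log2 values had a Pearson correlation of 0.82 with the brightest probe set over the 9 arrays. The third, 1427728_at, read 28.0, 5.17 and 44.2 with vehicle, 39.3, 23.8 and 39.6 with DES, and 33.4, 27.4 and 26.6 with BPA. Here the low array was vehicle E18, BPA E17 lay within the range of the others, and the correlation with the brightest probe set was -0.319. The 3 probe sets of Chrng therefore disagreed, and every tested value of Chrng below rests on 1449532_at.

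Chrnd, the delta subunit of both receptor forms, was dim, at the 13.2th percentile of all probe sets. Its signals were 5.89, 11.5 and 12.0 with vehicle, 5.69, 8.50 and 12.9 with DES, and 6.80, 9.71 and 8.64 with BPA. All 3 E17 arrays lay below all E18 and P0 arrays, as for 2.18% of all 18194 genes with no filter, but these signals are close in size to the added 5.46. Chrne, the epsilon subunit of the adult receptor, lay at the 5th percentile, with signals between 2.88 and 5.45 on the 9 arrays. No order of ages or agents could be read from Chrne at that level.

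Musk, the receptor tyrosine kinase that starts the clustering, had signals of 9.35, 33.0 and 36.7 with vehicle, 50.4, 36.5 and 32.4 with DES, and 38.0, 43.1 and 38.4 with BPA. Apart from the vehicle E17 array, which was the lowest, all arrays lay between 32.4 and 50.4. Rapsn, the scaffold that links receptors to the cytoskeleton, had signals of 70.2, 84.7 and 84.4 with vehicle, 59.3, 59.9 and 94.7 with DES, and 35.0, 62.9 and 79.1 with BPA. For Rapsn all 3 P0 arrays lay above all 3 E17 arrays, and the BPA E17 array was the lowest.

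**Figure D1:**
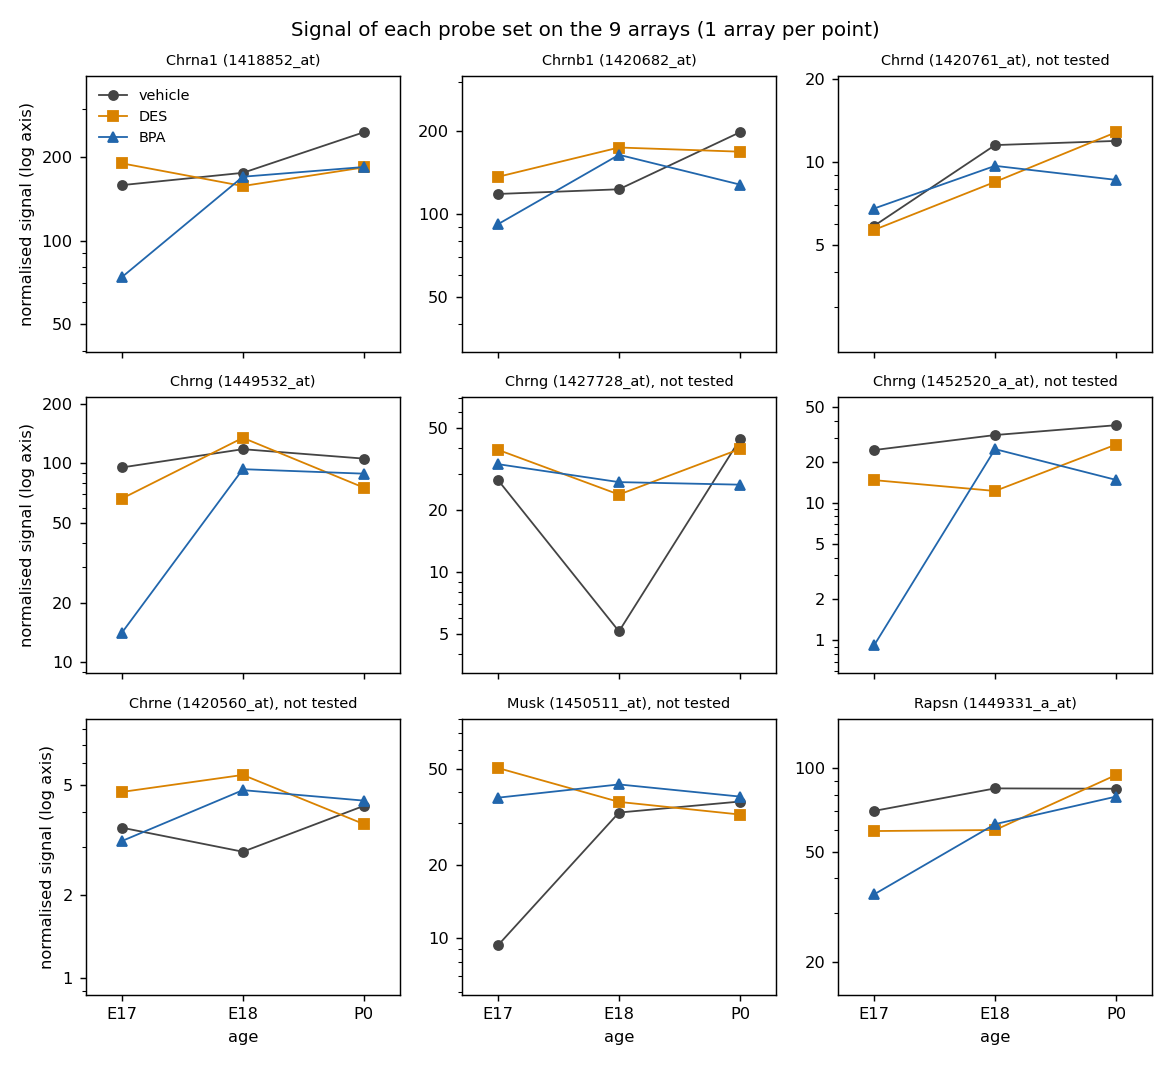
Normalised signal (vertical, log axis, arbitrary units) of the 9 probe sets at E17, E18 and P0 (horizontal), with 1 array per point and no error bar, and lines joining the arrays of 1 agent. The BPA E17 array is lowest for Chrna1, Chrnb1, Rapsn and 2 of the 3 Chrng probe sets, at 14.1 for the brightest, while Musk is lowest on the vehicle E17 array at 9.35.

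The comparison of P0 with E17 asked how the receptor genes differed over the last fetal days, with the 3 agents as the repeats. The fitted difference was above 0 for all 7 genes, as for 9446 of all 18194 genes. The 7 included Chrne, although no order could be read from it. Their median was 0.51 log2 units against 0.012 over all 18194 genes. The tested differences were 0.61 ± 0.24 (SE) for Chrna1, 0.49 ± 0.19 for Chrnb1, 0.86 ± 0.39 for Chrng and 0.65 ± 0.23 for Rapsn. None passed the threshold of 0.05 in limma's moderated test with Benjamini-Hochberg adjustment over all tested genes, with adjusted p = 0.212, 0.211, 0.259 and 0.172 in that order. Chrnd had 0.51, Musk 0.32 and Chrne 0.046, all untested, and the value of Chrne was -0.035 without the BPA E17 array and -0.071 on the values as deposited, before scaling.

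In that comparison 83 genes passed, 62 of them higher at P0, which is 0.619% of those tested. At an unadjusted p under 0.05 stood 2572 genes, among them all 4 tested members. The count of 83 depended on single arrays. It became 1141 without the DES P0 array, 58 without DES E17, 56 without BPA E18 and 40 without DES E18. It was 22 without vehicle E18, 17 without BPA E17, 8 without vehicle P0, 7 without BPA P0 and 6 without vehicle E17. Chrnb1, Chrng and Rapsn were higher at P0 under each of the 3 agents, as were 19.6% of tested genes, and of the 4 tested members Rapsn was the 1 whose P0 and E17 arrays did not overlap, as for 11% of tested genes. Chrna1 differed by 0.62 with vehicle, -0.048 with DES and 1.26 with BPA.

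The BPA E17 array carried much of these differences. Without it, P0 minus E17 was 0.25 for Chrna1, 0.40 for Chrnb1, 0.22 for Chrng and 0.44 for Rapsn. Musk turned to -0.23 without the vehicle E17 array.

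Between E18 and E17, the fitted difference was again above 0 for all 7 genes, as for 9758 of all 18194 genes. The median of the 7 was 0.38 against 0.013 over all genes. The 7 included Musk, which had -0.17 without the vehicle E17 array, and Chrne, which had -0.015 on the values as deposited. Among the tested members Chrng had the largest difference, 1.20 ± 0.39, and the others had 0.40 ± 0.19 for Chrnb1, 0.34 ± 0.24 for Chrna1 and 0.34 ± 0.23 for Rapsn, with limma adjusted p = 1 for each. Untested were Chrnd with 0.40, Musk with 0.38 and Chrne with 0.082. Within DES, Musk differed by -0.41 and Chrna1 by -0.26. No gene passed in this comparison (0%), 428 genes had an unadjusted p under 0.05, and Chrng was the 1 member among them. Chrnb1, Chrng and Rapsn were higher at E18 under every agent, as were 16.8% of tested genes. Without the BPA E17 array the difference was 0.56 for Chrng and -0.022 for Chrna1.

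Between P0 and E18 the differences of the tested members were 0.27 ± 0.24 for Chrna1, 0.090 ± 0.19 for Chrnb1, -0.34 ± 0.39 for Chrng and 0.31 ± 0.23 for Rapsn, with limma adjusted p from 0.555 to 0.857. Again 0% of genes passed, 1918 had an unadjusted p under 0.05, and 0 of those were members. The median of all 7 was 0.090, with 4 positive and 3 negative, while 9109 of all 18194 genes were positive.

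**Figure D2:**
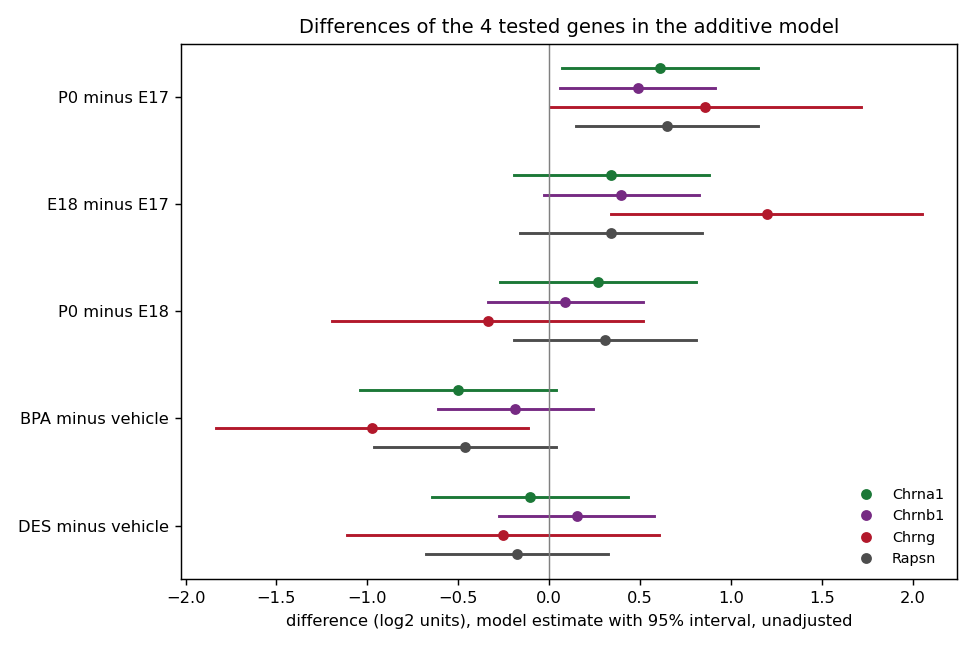
Differences of the 4 tested genes (horizontal, log2 units) in the 5 comparisons (vertical), each a model estimate over the 9 arrays with its unadjusted 95% interval. Values for P0 minus E17 lie between 0.49 and 0.86 and those for BPA minus vehicle between -0.97 and -0.19, and none passed the adjusted threshold.

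The BPA comparison asked whether fetal exposure moved these genes, with the 3 ages as the repeats. All 4 tested members lay lower with BPA, as did 6393 of the 13400 tested genes. Of all 7 members 5 lay lower, as did 8485 of all 18194 genes. The median of the 7 was -0.19, against 0.014 over all genes. Chrng had the largest difference, -0.97 ± 0.39 (95% interval -1.83 to -0.12), with limma adjusted p = 0.544. Chrna1 had -0.50 ± 0.24 (interval -1.04 to 0.036), Rapsn -0.46 ± 0.23 (interval -0.96 to 0.037) and Chrnb1 -0.19 ± 0.19 (interval -0.61 to 0.24), with limma adjusted p from 0.642 to 0.847. Chrnd had -0.12 and Chrne 0.089, and Musk had 0.65, or 0.10 without the vehicle E17 array.

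In the BPA comparison 2 genes passed, both higher with BPA, or 0.0149% of those tested, and 1111 had an unadjusted p under 0.05, Chrng being the 1 member among them. By age, Chrng differed by -2.37 (E17), -0.32 (E18) and -0.24 (P0), and Rapsn by -0.90, -0.40 and -0.088. Chrna1 differed by -1.05, -0.045 and -0.41, and Chrnb1 by -0.35, 0.40 and -0.61. Chrna1, Chrng and Rapsn were thus lower with BPA at every age, as were 14.7% of tested genes. Of the 4 tested members, Chrng was the 1 whose BPA and vehicle arrays did not overlap in this direction, as for 4.62% of tested genes. The Chrng probe sets 1452520_a_at and 1427728_at did overlap between BPA and vehicle. Musk, untested and below the filter, went the other way, by 1.55 (E17), 0.34 (E18) and 0.059 (P0). The first of these is set against the low vehicle E17 array, at 9.35. The share of genes higher with BPA at every age was not counted.

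All 4 tested members had their lowest value of the 9 arrays on BPA E17, where 12.1% of tested genes had theirs. Without that array, BPA minus vehicle was -0.34 for Chrng, -0.14 for Chrna1, -0.26 for Rapsn and -0.094 for Chrnb1. On the values as deposited, before scaling between arrays, Chrng had -1.20 with limma adjusted p = 0.0491, and the median of the tested genes there was -0.24. The BPA P0 array was the dimmest of the 9.

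For DES, the stronger estrogen, the differences were -0.10 ± 0.24 for Chrna1, 0.15 ± 0.19 for Chrnb1, -0.25 ± 0.39 for Chrng and -0.18 ± 0.23 for Rapsn, with limma adjusted p from 0.928 to 0.962. No gene passed (0%), 853 had an unadjusted p under 0.05, and 0 of those were members. The interval for Chrng ran from -1.11 to 0.60. None of the 4 was lower with DES at all 3 ages, while 10.7% of tested genes were. Musk had 0.63, again set against the low vehicle E17 array, and DES and BPA share the same vehicle arrays.

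A model with a slope over the 3 ages for each agent asked whether the agent's difference moved with age. For Chrng the BPA difference was 1.06 ± 0.29 log2 units higher per age step, with limma adjusted p = 0.358. The slopes were 0.32 ± 0.23 for Chrna1, 0.41 ± 0.26 for Rapsn and -0.13 ± 0.24 for Chrnb1. In this model 8 genes, or 0.0597%, passed for BPA and 0% for DES, and 1298 and 1198 had an unadjusted p under 0.05, with Chrng the 1 member for BPA and 0 members for DES. The DES slope of Chrng was 0.015 ± 0.29. The model left 2 residual degrees of freedom, and without the BPA E17 array the slope of Chrng was 0.41 and that of Chrna1 was -0.40.

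The fetal gamma and adult epsilon subunits were also set against each other as the log2 signal of Chrng minus that of Chrne on each array, which follows changes of this difference and not the ratio of the transcripts. It was 3.49, 3.89 and 3.52 with vehicle at E17, E18 and P0, then 2.82, 3.68 and 3.16 with DES, and 1.18, 3.27 and 3.26 with BPA. The BPA E17 array was the lowest and all 3 BPA values lay below all 3 vehicle values. As Chrne stayed near the bottom of the signal range, the value followed Chrng, so it is a second reading of Chrng and not a measure of the exchange of gamma for epsilon.

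For BPA minus vehicle this reading of Chrng differed by -1.06, with p = 0.0185 in an exact two-sided permutation test within ages and 0.0555 after adjustment over 3 comparisons. Every arrangement within the ages was enumerated, and 0.00926 was the smallest p this could give. The difference for P0 minus E17 was 0.81 (exact permutation p = 0.241, adjusted 0.362) and for DES minus vehicle -0.41 (exact permutation p = 0.639, adjusted 0.639). Without the BPA E17 array, the BPA difference was -0.37. With the probe set 1427728_at for Chrng, it was 0.32.

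Sarcomere and excitation genes of skeletal muscle, a list of 19 with no member in it, were set beside the receptor genes for reference. Muscle content itself was not measured. Of the 18 list genes tested, 15 were higher at P0 than at E17 and 11 of these passed, with a median of 1.14. Myh8, the perinatal myosin heavy chain, rose by 2.39 ± 0.19 (limma adjusted p = 0.00203), and Tnnt3, fast troponin T, by 1.31 ± 0.13 (limma adjusted p = 0.00405). Each of the 4 tested members had a smaller difference than that median. Acta1 (-0.40), Ckm (-0.38) and Des (-0.25), for skeletal actin, creatine kinase and desmin, were the 3 with a negative value, and none of them passed. All 7 markers of smooth muscle had a negative value there too, with a median of -0.56, and 0 passed.

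The count of 11 was 13 without the DES P0 array and 10 without DES E17 or BPA E18. It was 7 without the BPA E17 array, 7 without DES E18, 6 without vehicle E18, and 3 without vehicle E17, vehicle P0 or BPA P0. With BPA, 15 of 18 muscle genes were lower than with vehicle and 0 passed, with a median of -0.57. On the values as deposited 8 passed. After scaling, the 3 muscle genes higher with BPA were Acta1 (0.41), Ckm (0.65) and Des (0.53), the direction of the smooth muscle markers. The lowest of the 9 arrays was BPA E17 for 13 of the 18 muscle genes, as it was for the 4 tested members, while Acta1, Ckm and Des, 3 of the 18, had their highest value there.

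Summed over the muscle list, the signal was 13192 on the BPA E17 array, 15542 with DES and 16528 with vehicle at the same age, 18290 to 20159 at E18 and 20052 to 24108 at P0. Acta1 alone made up 58.9% of that sum on the BPA E17 array, and without it the sums at E17 were 5420 with BPA, 9209 with DES and 9162 with vehicle. Summed over the 7 receptor and synapse genes, it was 263 on the BPA E17 array, 461 to 514 on the other E17 arrays, 548 to 577 at E18 and 532 to 688 at P0. In this bulk tissue, fewer muscle cells in the sample and less receptor RNA per muscle cell cannot be told apart. Markers of smooth muscle had fitted differences of the other sign: all 7 were higher with BPA, with a median of 0.69, and 0 of them passed. All 7 were higher with DES as well, with a median of 0.30. At E17 their summed signal was 37495 with BPA and 35204 with vehicle. It was 35344 and 21506 at E18, and 34213 and 23084 at P0, in the same order. The part of these markers in the differences of the receptor genes was not tested.

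**Figure D3:**
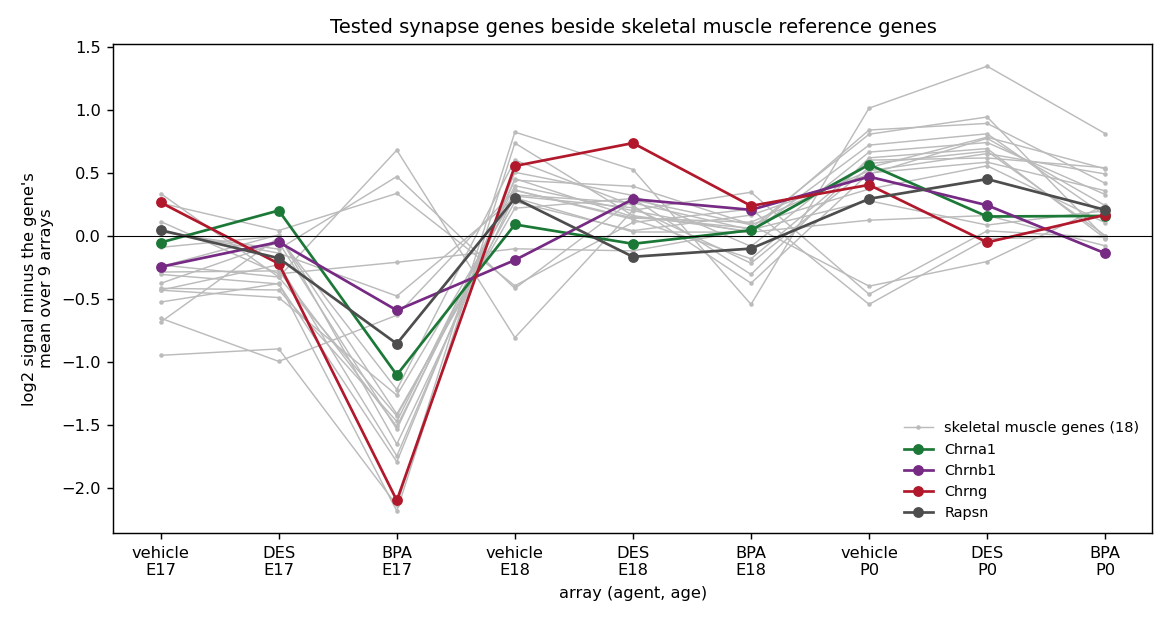
Log2 signal of each gene minus its own mean over the 9 arrays (vertical, log2 units) on each array (horizontal), for 4 tested members in colour and 18 skeletal muscle genes in grey, with 1 array per point. On the BPA E17 array the 4 members and 13 of the 18 muscle genes have their lowest value, and 3 of the 18 their highest.

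The genes whose values ran most like each tested member over the 9 arrays were named by Pearson correlation, with n = 9 arrays that share their depth and tissue content. For Rapsn they were Git1 (0.978), Palmd (0.968) and Myot (0.953), the last encoding the Z-disc protein myotilin. For Chrna1 they were Pyroxd1 (0.948), Rsrc1 (0.942) and Tnnc1 (0.941), the last encoding the troponin C of slow and cardiac muscle. Those nearest to Chrng were Cfap43 (0.948), Ddc (0.943) and Adgra3 (0.942). Chrnb1 ran closest to Mtres1 (0.947), Ccm2l (0.941) and 9930021J03Rik (0.941).

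Around the receptor, 59 further synapse genes were listed in 7 groups, of which 56 were analysed here and 47 were tested. The groups include neuronal nicotinic subunits, which form receptors in autonomic ganglia, so they are not all genes of the neuromuscular synapse. In limma 0 of the 47 passed in any of the 5 comparisons. At P0 against E17, 26 were higher and 21 lower, with a median of 0.019, whereas the 4 tested members had a median of 0.63. With BPA 14 were higher and 33 lower, with a median of -0.10, against -0.48 for the 4 tested members. With DES 18 were higher and 29 lower, with a median of -0.041.

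In the list of agrin and MuSK signalling all 8 genes were tested, and 7 of them were lower at P0 than at E17. Their median was -0.088. Dvl1, a Dishevelled adaptor that binds MuSK, had the largest difference, -0.36 ± 0.11 (limma adjusted p = 0.124). Dok7, the adaptor that activates MuSK, had the largest with BPA, 0.41 ± 0.22 (limma adjusted p = 0.669). Its signal was 103 on the vehicle E17 array and 123 to 212 on the others, so the array that was lowest for Musk was lowest for Dok7 too.

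In the list of neuregulin receptors and synaptic transcription, 6 of 8 were tested, 3 higher and 3 lower at P0, and 5 of the 6 were lower with BPA. Etv4, an ETS factor of the family that binds N-boxes, was the outermost in both comparisons, with -0.55 ± 0.24 at P0 (limma adjusted p = 0.241) and -0.82 ± 0.24 with BPA (limma adjusted p = 0.394). Its lowest signal, 40.5, came from the BPA P0 array, against 131 to 133 with vehicle.

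Of the synaptic basal lamina genes, 6 of 7 were tested, and 4 were higher at P0. Lama2, the laminin alpha chain of the muscle basement membrane, had 0.38 ± 0.12 (limma adjusted p = 0.150). Ache, the esterase that breaks down acetylcholine at the synapse, had -0.37 ± 0.14 with BPA (limma adjusted p = 0.503), and its lowest signal, 137, was again on the BPA E17 array against 207 on vehicle E17.

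Among 9 tested scaffold genes, 5 were higher and 4 lower at P0. Sntb1, a syntrophin of the dystrophin complex, had the largest differences, 0.53 ± 0.15 at P0 (limma adjusted p = 0.120) and -0.43 ± 0.15 with BPA (limma adjusted p = 0.466). Its signal was 93.6 on the BPA E17 array and 141 to 211 on the others.

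The activity-dependent regulators of the receptor genes were all tested, with 5 of 9 higher at P0 and 7 of 9 lower with BPA (median -0.33). Myog, the E-box factor of muscle differentiation, had 0.64 ± 0.18 at P0 (limma adjusted p = 0.117), the largest of that list. Its signal was 183 on the BPA E17 array, 359 on vehicle E17, 486 on DES E17 and 372 to 581 on the others, so it shared its lowest array with Chrna1 and Chrng. Runx1, a factor that denervated muscle raises, had 0.84 ± 0.23 with BPA (limma adjusted p = 0.363). Its signal was 84.9 to 140 on the BPA arrays against 40.2 to 71.7 with vehicle. The share of tested genes that lay apart in this direction was not counted. In direction Runx1 was thus opposite to the 4 tested members.

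On the nerve side, 4 of 5 genes of the cholinergic terminal were tested. All 4 were higher at P0 (median 0.13) and lower with BPA (median -0.18). Of all 13400 tested genes, 6741 were higher at P0 and 6393 lower with BPA. Chat, below the filter and untested, had -0.87 for P0 minus E17 and -0.27 for BPA minus vehicle. Snap25, of the vesicle fusion machinery, had 0.19 ± 0.14 at P0 (limma adjusted p = 0.512) and -0.33 ± 0.14 with BPA (limma adjusted p = 0.589). All 7 tested markers of pelvic neurons were lower with BPA as well, with a median of -0.24. The same held for DES, set against the same vehicle arrays. There 6 of these 7 markers were lower (median -0.26), as were all 4 tested genes of the cholinergic terminal (median -0.26).

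Neuronal nicotinic subunits form related receptors in autonomic ganglia, and 5 of the 10 on the array were tested. Chrnb4, one of the ganglionic subunits, had the largest age difference, 0.38 ± 0.23 (limma adjusted p = 0.399). Chrna3, its usual partner, had -0.22 ± 0.15 with BPA (limma adjusted p = 0.751), with signals of 168 to 221 on all 9 arrays. The ganglionic alpha subunit thus did not have the low BPA E17 value of Chrna1: it was 172 there and 169 on vehicle E17.

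**Figure D4:**
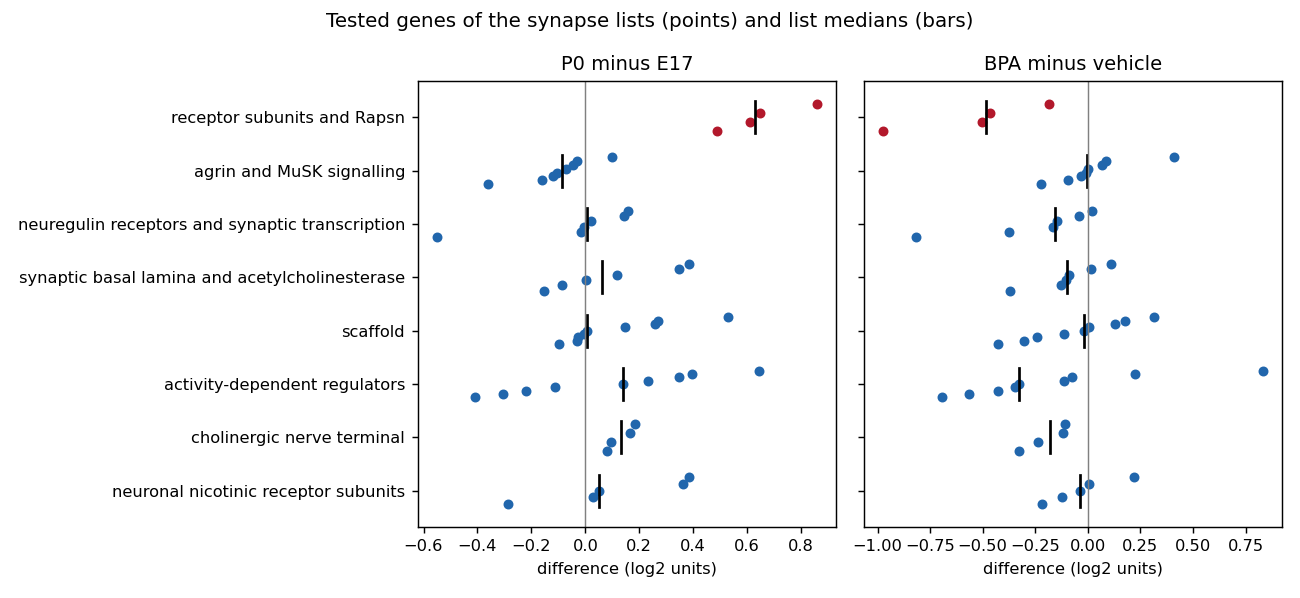
Differences of tested genes (points, horizontal, log2 units) for P0 minus E17 and BPA minus vehicle in the receptor group (red) and 7 synapse lists (blue), with black bars at list medians. The receptor genes lie between 0.49 and 0.86 at P0, while all 47 list genes together have a median of 0.019.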

How the data were processed

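The authors deposited a table of probe set intensities on a linear scale, and MAS5 is named as the tool per the submitters' processing notes, with no version or scaling target given in the sources used here. It held 45101 probe sets, 64 of them controls, with 0 missing values and 0 identical pairs of arrays. By the platform annotation 34958 probe sets had 1 symbol, 932 had several and 9211 had none. As the trimmed means of the deposited intensities differed between arrays, the values were quantile normalized in R 4.3.3, and log2(signal + 5.46) was taken, the addition being the 10th percentile. The probe set with the highest mean stood for a gene. limma 3.58.1 (lmFit, eBayes with intensity trend) fitted age and agent as additive terms on all 9 arrays, leaving 4 residual degrees of freedom, with Benjamini-Hochberg adjustment. A second model added agent slopes over age. The additive model alone was tested on simulated data, with differences planted at P0. The scaling, the choice of probe set, the filter, the slopes and the permutation test were not simulated.

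The members and gene lists were chosen with earlier results of these data known. All members are named, with, from each synapse list, the gene of the largest difference at P0 and with BPA, and the 3 genes nearest each tested member. Other muscle genes were named after their values were seen. Alternatives changed the scaling, the addition, the filter, the probe set, the variance model and the arrays used. The number of arrays limits the precision.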

Additional observations from a re-analysis of the deposited data

How the results depend on the processing

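In 21 alternative settings, no member tested there passed the threshold in the age comparisons, the DES comparison or the slopes wherever these were fitted. Chrnd, Chrne and Musk, below the filter in the main setting, had no test wherever it left them out. For BPA the count of members that passed was 1 on the values as deposited (Chrng) and 0 in the other settings. Chrng minus Chrne for BPA was -1.23 on the values as deposited and -1.10 with a common trimmed mean (adjusted exact permutation p = 0.0278 each), and -1.41 to -0.37 with single arrays left out. With the probe set 1427728_at it turned to 0.32 for BPA and 0.42 for DES. Its adjusted exact permutation p was 0.0278 to 0.722 over all settings, and the cause was not tested.

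Chrnb1 between P0 and E18 was -0.076 on the values as deposited, -0.20 without the vehicle arrays, and -0.14 to 0.30 with single arrays left out. Chrna1 between E18 and E17 was -0.061 without the BPA arrays and -0.022 to 0.66 with single arrays left out. Leaving out single arrays also turned Chrng (-0.52 to 0.15), Chrnb1 (-0.078 to 0.35) and Chrna1 (-0.42 to 0.074) for DES, and Chrnb1 (-0.41 to 0.016) for BPA. Slopes per age step that turned were those of Chrna1 (-0.40 to 1.05) and Chrnb1 (-0.82 to 0.56) for BPA, and of Chrna1 (-0.75 to 0.082), Chrnb1 (-0.90 to 0.48), Chrng (-0.81 to 0.83) and Rapsn (-0.29 to 0.67) for DES.

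All genes past the threshold numbered 1 to 1141 for P0 against E17 and 0 to 62 for BPA. The muscle sum without Acta1 was chosen after seeing the data. The muscle count, repeated under each setting by a choice made after seeing the data, was 2 without the intensity trend, 3 without the filter and 4 with every probe set. Values as deposited moved the median of tested genes by -0.29 for P0 against E17. Slopes were not run where several arrays were left out, and the filter at the 60th percentile left Chrng and Rapsn untested. The labels carry no replicate numbers, and the matching of agents within ages is part of every fit.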
